A study of Mus musculus with 6 samples.

Results

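A set of 10 genes that carry or regulate the ATF4 and CHOP stress response was followed across 6 cultures of the RET mouse melanoma line: Atf4, Atf5, Atf3, Ddit3, Trib3, Nupr1, Cebpb, Cebpg, Sesn2 and Ppp1r15a. The genes were chosen by name, with earlier results of these arrays known, among them that stress genes were high on the array of control replicate 1. Height on that array is therefore given as a description with no test. Each gene was read from the transcript cluster whose annotation gives that 1 symbol, and all 10 of 10 were measured, each by 1 cluster, among 22180 named genes. RET cells, with the strain given as C57BL\6, expressed a short hairpin RNA (shRNA) that was non-targeting in 3 control cultures and was Angpt2 shRNA-1 in 3 cultures called silenced here. Equal cell numbers were seeded, and RNA was taken after 24 h in high-glucose DMEM with serum, antibiotics and added non-essential amino acids. Each culture is called a biological replicate in the labels and had its own Affymetrix Mouse Gene 2.0 ST array. A single hairpin was used, with no rescue, so loss of Angpt2, other effects of this hairpin and differences between the 2 sets of cells cannot be told apart. The titles of the control samples carry the word GFP, while their genotype label gives non-targeting shRNA, which is the name used here. The labels do not say whether either line is a clone or a pool.

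In the integrated stress response, kinases that sense unfolded protein in the endoplasmic reticulum (ER), amino acid shortage, haem shortage or double-stranded RNA phosphorylate the initiation factor eIF2alpha. General translation slows while the transcription factor ATF4 is translated more efficiently, and ATF4 then induces genes of amino acid supply together with further regulators such as CHOP (Ddit3), ATF3 and TRIB3. ATF4 binds composite C/EBP-ATF elements (CARE) as a dimer with a C/EBP partner, and much of its control is translational, so the transcript of Atf4 is not a measure of ATF4 protein.

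Promoter sequences from RefSeq (GRCm38.p6) were available for all 10 regulators and are shown as background. A CARE motif, TGATGNAA read on either strand, lay within 250 bases before the start of 2 of the 10, Atf3 and Nupr1, against 1056 of 27025 genes with such a window (3.91%). Both matches are on the opposite strand to the gene, in the letters shown in capitals, and in both the first letter lies 110 bases before the start. Atf3 is on the minus strand (chr1:191183334-191183583) and Nupr1 on the minus strand (chr7:126625471-126625720).
Atf3: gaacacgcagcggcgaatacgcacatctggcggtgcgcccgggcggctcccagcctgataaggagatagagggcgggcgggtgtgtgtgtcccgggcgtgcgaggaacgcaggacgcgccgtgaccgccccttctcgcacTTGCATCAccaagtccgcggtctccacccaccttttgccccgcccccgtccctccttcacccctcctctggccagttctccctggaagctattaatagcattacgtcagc
Nupr1: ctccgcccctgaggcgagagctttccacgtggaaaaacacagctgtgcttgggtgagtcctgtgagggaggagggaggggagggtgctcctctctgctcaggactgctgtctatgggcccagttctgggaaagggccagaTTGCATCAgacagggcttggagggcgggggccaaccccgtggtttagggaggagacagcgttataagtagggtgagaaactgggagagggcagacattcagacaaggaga
Trib3, also on the minus strand, had a match in the first 50 bases of its transcribed part, beginning at base 15 (site at chr2:152344028-152344057).
Trib3: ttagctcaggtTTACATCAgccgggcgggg
With those 50 bases included, 3 of 10 regulators held the motif, against 4.51% of genes. The cyclic AMP response element TGACGTCA, which reads the same on both strands, lay before the start of Ppp1r15a only, against 1.77% of genes. These are matches of letters in a short window, and binding was not measured. The regulators were chosen by name as genes of this response, so nothing is read from these shares, and a link to the array values was not tested.

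Arrays of a group correlated at 0.983 to 0.993 in log2 values, and the array medians of the deposited intensities ran from 74.5 to 76.2. Angpt2, the targeted transcript, had intensities of 195, 372 and 326 in controls 1 to 3 and of 100.2, 122 and 122 in silenced cultures 1 to 3. The silenced arrays were all lower than the controls, and control replicate 1 was the lowest control. The log2 difference was -1.33 with a standard error (SE) of 0.21 (limma adjusted p = 1.00), and it passed the threshold of 0.05 without control replicate 1 (log2 difference -1.61, limma adjusted p = 0.0116) and with the replicate number as a block (limma adjusted p = 0.046). All 8 of 8 melanocyte markers were bright on every array (1387 to 9651). No marker list of another cell type summed to more on every array of 1 group than on all of the other, except the 7 endothelial markers, which lay between 46.1 and 90.9 each and summed to 440 to 480 in controls and 482 to 489 in silenced cells.

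All 10 regulators had their highest value on control replicate 1, and no group difference passed the test. Atf4, the transcription factor at the head of the programme, had intensities of 2056, 795 and 1245 on controls 1 to 3 and of 1548, 1257 and 1694 on silenced replicates 1 to 3. The controls held both its highest and its lowest array, and the silenced arrays lay between them. Group means were 10.31 ± 0.69 and 10.54 ± 0.22 log2 units (SD, n = 3 each) for control and silenced cells. The log2 difference, silenced minus control as in all that follows, was 0.23 (SE 0.29, limma adjusted p = 1.00).

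A further 3 relatives of ATF4 in the bZIP family showed a sharper peak on the same array. Atf5, a stress-induced factor that is also under translational control, read 825, 207 and 214 in control replicates 1 to 3 and 266, 192 and 254 in silenced replicates 1 to 3. Apart from control replicate 1, its arrays spanned only 192 to 266, with the groups interleaved. Atf3, an early target of ATF4 that acts mainly as a repressor, read 699.8, 222 and 254 in controls and 286, 211 and 337 in silenced cells. Ddit3, which encodes CHOP, a C/EBP relative linked to cell death under lasting stress, read 1108, 205 and 345 in controls and 280.3, 227 and 424 in silenced cells. For Atf3 and Ddit3 control replicate 1 was the highest array, silenced replicate 3 the next, and both arrays numbered 2 were the lowest. Log2 differences were -0.50 (SE 0.45) for Atf5, -0.32 (SE 0.38) for Atf3 and -0.51 (SE 0.51) for Ddit3, each with a limma adjusted p of 1.00.

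The C/EBP partners had their highest 2 arrays in the same order. Cebpb, a C/EBP factor that can dimerize with ATF4, had intensities of 368, 93.6 and 131 in controls and 136, 105 and 152 in silenced cells. Its silenced arrays all lay between the highest and the lowest control. Cebpg, which encodes a short C/EBP protein that pairs with other bZIP factors, including ATF4, had 753, 330.4 and 359 in controls and 326, 314 and 458 in silenced cells. For Cebpg control replicate 1 and silenced replicate 3 stood above the other 4 arrays, and of those 4 both controls were above both silenced arrays. Log2 differences were -0.35 (SE 0.42) for Cebpb and -0.31 (SE 0.29) for Cebpg (limma adjusted p = 1.00 for each).

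Trib3 and Nupr1 spanned the widest range. Trib3, a pseudokinase that is induced by ATF4 and CHOP and restrains their activity, had intensities of 1124, 149 and 299 in controls and 330.0, 154 and 468 in silenced cells. Nupr1, a small stress-inducible chromatin protein, had 1589, 155 and 289 in controls and 407, 177 and 451 in silenced cells. For both genes the 2 arrays numbered 2 were the lowest and nearly alike, while the arrays numbered 1 differed most between the groups. Nupr1 varied 10.3-fold over the 6 arrays (3.36 log2 units). Log2 differences were -0.36 (SE 0.65) for Trib3 and -0.38 (SE 0.73) for Nupr1, each smaller than its SE (limma adjusted p = 1.00 for each).

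Sesn2 and Ppp1r15a act on the response from outside the transcription factors. Sesn2, a leucine-binding protein that restrains mTORC1 when amino acids are short, had intensities of 792, 229 and 322 in controls and 613, 324 and 503 in silenced cells. After control replicate 1, its next arrays were silenced replicates 1 and 3. Ppp1r15a, also called GADD34, the phosphatase subunit that brings the response back down by dephosphorylating eIF2alpha, had 260.4, 117 and 140.5 in controls and 128, 117 and 109.8 in silenced cells. Ppp1r15a departed from the others on silenced replicate 3, which was its lowest array. Log2 differences were 0.26 (SE 0.40) for Sesn2 and -0.46 (SE 0.25) for Ppp1r15a (limma adjusted p = 1.00 for each).

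**Figure D1:**
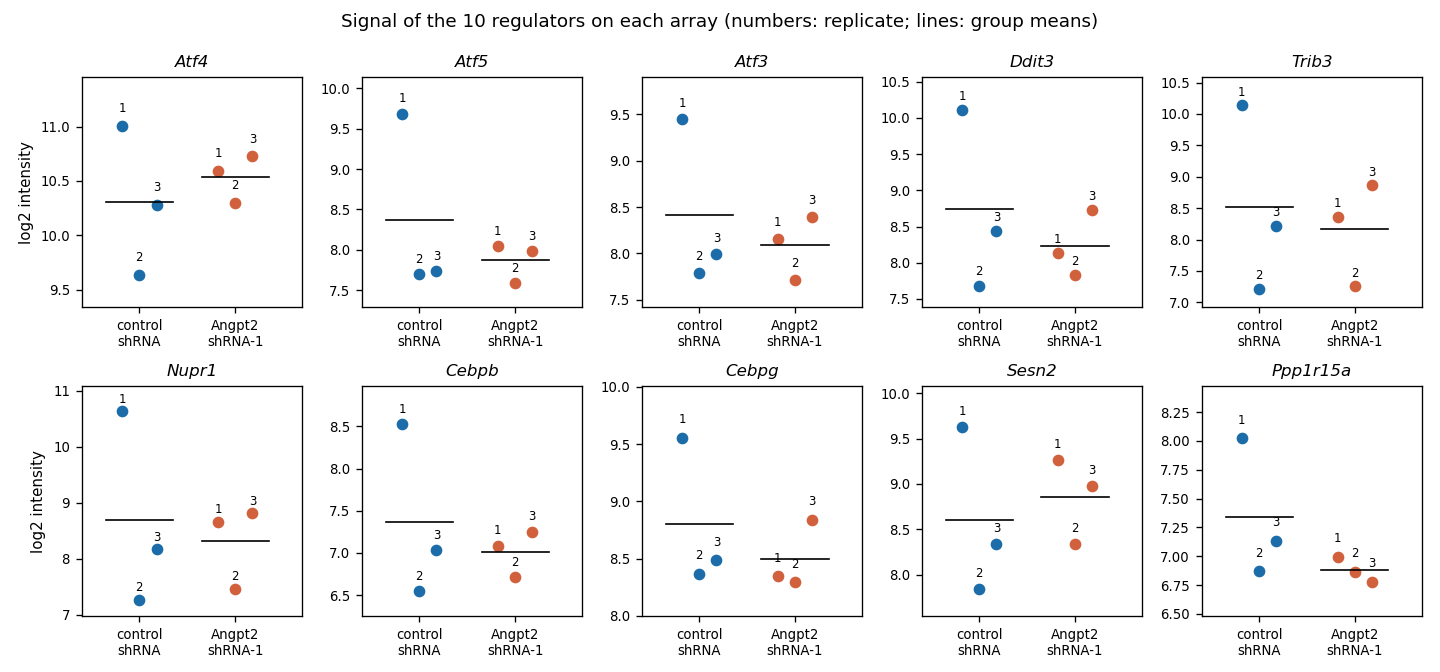
Log2 intensity of each of the 10 regulators on the 3 control shRNA arrays (blue) and the 3 Angpt2 shRNA-1 arrays (orange). Points carry the replicate number, lines are group means, and each panel has its own scale. Control replicate 1 is the highest point in all 10 panels, from 2056 for Atf4 to 260.4 for Ppp1r15a on the linear scale.

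The peak on control replicate 1 was measured as the log2 value there minus the mean of the other 5 arrays. It was 2.55 for Nupr1 (5.88-fold), 2.15 for Trib3, 1.95 for Ddit3, 1.87 for Atf5, 1.60 for Cebpb and 1.44 for Atf3. These 6 were also at least 2-fold above their next highest array. Ppp1r15a, Cebpg and Sesn2 followed at 1.10, 1.09 and 1.08, and Atf4 had the smallest excess, 0.70 (1.62-fold). The regulators' median was 1.52, beside 0.02 over all genes. An excess of at least 1 log2 unit was found for 9 of 10 regulators and for 50 genes in all (0.225%), and the highest array was control replicate 1 for 10 of 10 regulators and for 25.8% of all genes. Since the genes were chosen with this array's height known, nothing is read from these shares. The other arrays had 2 to 12 genes each with an excess of that size.

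The remaining arrays also held an order. The lowest array was control replicate 2 for 6 regulators, silenced replicate 2 for 3 and silenced replicate 3 for Ppp1r15a. Both arrays numbered 2 were the 2 lowest for 6 of 10 regulators, against 8.51% of all genes. In the lists read below, this held for 70% of amino acid synthesis enzymes, 62.5% of transporters and 58.3% of the synthetase list. In the other lists it held for 0% to 28.6%. The regulators vary together and were chosen with these arrays known, so nothing is read from their count. Silenced replicate 3 was the second highest array for 7 regulators, a count for which no share over all genes was taken and from which nothing is read. The mean deviation of the regulators from their own means was 1.29 on control replicate 1. It was -0.69 and -0.20 for the other controls, numbered 2 and 3, and -0.02, -0.54 and 0.15 for silenced replicates 1 to 3. Cebpb lay closest to the mean profile of the other regulators, with a root mean square difference of 0.075 log2 units. Nupr1 lay farthest, at 0.52, with the same order but wider swings, and Trib3 was at 0.42.

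**Figure D2:**
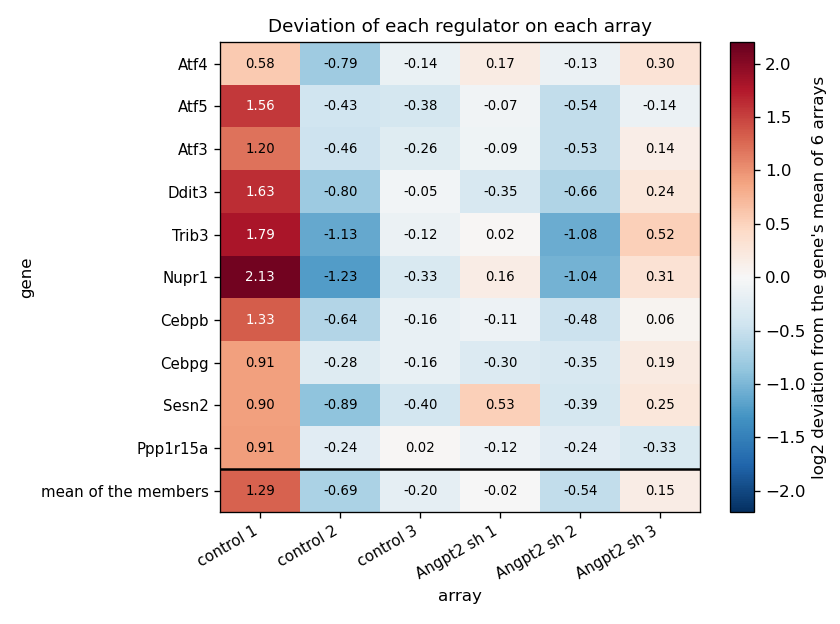
Log2 deviation of each regulator (lines of the grid) from its own mean over the 6 arrays (columns), with the mean of the 10 regulators at the bottom. Control replicate 1 is above the mean for every regulator (mean 1.29), and control replicate 2 (mean -0.69) and silenced replicate 2 (mean -0.54) are below it for every regulator.

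Whether silencing of Angpt2 goes with a change in these regulators is the question of the group comparison. None of the 10 passed the threshold (limma adjusted p = 1.00 for each), in a fit that called 0 of 22180 genes (0%) and had 835 genes with an unadjusted p under 0.05 (3.76%), none of them a regulator. Exact permutation tests of the single genes, two-sided, gave p between 0.2 and 0.9, where 3 against 3 arrays allow no p under 0.1. All 10 intervals (95%) of the difference held 0. The narrowest ran from -1.02 to 0.10 for Ppp1r15a and the widest from -2.02 to 1.26 for Nupr1, with -0.41 to 0.88 for Atf4. Changes of more than 2-fold remain within the interval for every regulator but Atf4 and Cebpg. The control SD exceeded the silenced SD for each regulator. The sign of the difference was negative for 8 of 10 regulators, against 54.8% of all genes, with a median of -0.36 beside -0.01 over all genes. The controls include control replicate 1, whose height was known when the genes were chosen. Nothing is therefore read from the SDs or the signs. The arrays of the groups did not separate for any of the 10, against 9.01% of all genes in either direction. Control replicate 1 was the highest array of every regulator, so they could separate only with the controls above. Nothing is therefore read from this count either.

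Control replicate 1 was the highest array of every regulator and its height was known beforehand, so leaving it out raises every difference. Nothing is therefore read from the signs, shares and intervals without it, which are given as a description. Without control replicate 1 the sign turned for 7 of the 8 regulators with a negative difference. The difference was then positive for 9 of 10 regulators, against 47% of all genes, with a median of 0.21 beside -0.01. Sesn2 had the largest difference, 0.77 (interval 0.20 to 1.35), followed by Nupr1 at 0.59 (-0.31 to 1.49) and Atf4 at 0.58 (0.14 to 1.02). The groups separated for 2 of 10 regulators, against 19.6% of all genes in either direction. These were Sesn2 and Atf4, both with all silenced arrays above the other 2 controls, which held for 8.72% of all genes. Ppp1r15a stayed negative, at -0.12 (-0.38 to 0.14). No regulator passed the test (limma adjusted p = 0.992 for each), and the only gene called was Angpt2 (0.00451% of genes). Atf4 and Sesn2 in turn depended on control replicate 2, without which their differences were -0.10 and -0.12 (limma adjusted p = 0.968 and 0.980).

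**Figure D3:**
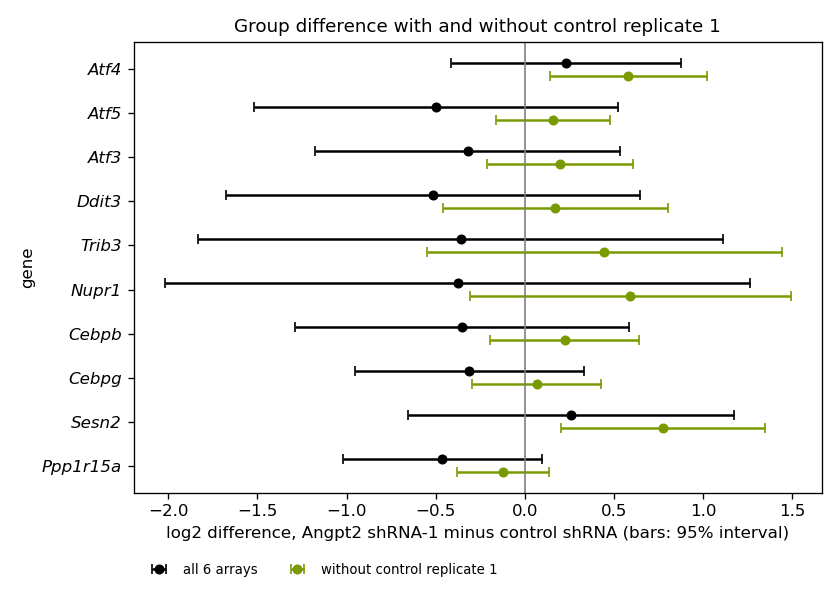
Log2 difference, silenced minus control, for each regulator with all 6 arrays (black) and without control replicate 1 (green), with 95% intervals from limma. With all arrays every interval holds 0. Without that array 9 of 10 differences are above 0, and the intervals of Atf4 and Sesn2 lie above 0. Leaving out the highest array of every regulator raises each difference, so nothing is read from this.

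Arrays with the same replicate number were also set against each other, with 1 array per group and no test within a number. In replicate 1 the silenced array was above the control for 0 of 10 regulators, against 44.7% of all genes, with a median difference of -1.37. Control replicate 1 was the highest array of every regulator, so this sign was fixed and nothing is read from it. Differences in replicate 1 ran from -1.98 for Ddit3 and -1.97 for Nupr1 to -0.41 for Atf4 and -0.37 for Sesn2. In replicate 2 it was above for 6 of 10, against 46% of all genes, with a median of 0.09. Only Atf4 (0.66) and Sesn2 (0.50) differed there by more than 0.2 log2 units. In replicate 3 it was above for 9 of 10, against 50.9% of all genes, with a median of 0.38, and Ppp1r15a was the exception at -0.36. The regulators vary together, so each of these counts rests on 1 pair of arrays, and nothing is read from them. With the replicate number as a block in the fit, 2 genes were called (0.00902% of genes), Angpt2 and Pld4, and each regulator had a limma adjusted p of 0.997.

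**Figure D4:**
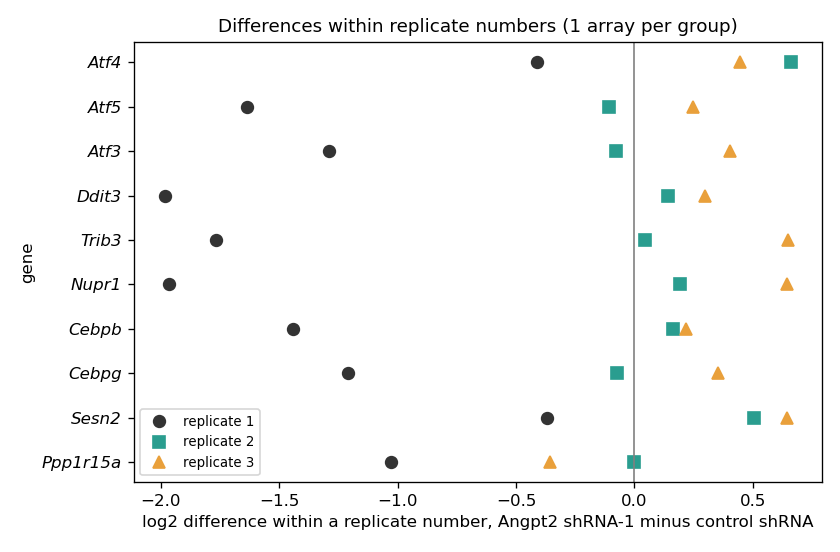
Log2 difference between the silenced and the control array of the same replicate number, for each regulator. Replicate 1 (black circles) lies below 0 for all 10 genes, replicate 2 (green squares) near 0 for most, and replicate 3 (orange triangles) above 0 for 9 of 10. The sign in replicate 1 was fixed, since control replicate 1 is the highest array of every regulator. The counts in replicates 2 and 3 each rest on 1 pair of arrays.

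Genes around the regulators were read from 8 lists. The lists were also chosen with earlier results of these arrays known. Nothing is therefore read from counts of listed genes that are highest on control replicate 1, or from list medians there. No listed gene passed the test of the group difference in the fit with all arrays. The 4 kinases that phosphorylate eIF2alpha did not share the peak on control replicate 1: the excess was -0.10 for Eif2ak3 (PERK), -0.13 for Eif2ak4 (GCN2), -0.03 for Eif2ak1 (HRI) and -0.23 for Eif2ak2 (PKR). Over the 15 measured genes of eIF2, its kinases and their regulators the median excess was 0.00. Eif2ak3 had intensities of 327, 281 and 356 in controls and 406, 357 and 369 in silenced cells. Its log2 difference was 0.24 (SE 0.11, limma adjusted p = 1.00). The groups separated for 3 of these 15 genes, against 9.01% of all genes. The silenced arrays were above the controls for Eif2ak3 and Eif2ak4 (0.19, SE 0.09). They were below them for Impact (-0.24, SE 0.09), an inhibitor of GCN2 activation that was named after its values were seen. An unadjusted limma p under 0.05 was found for 1 of the 15, against 3.76% of all genes. Nothing is read from these small counts or from the directions of the 3 genes.

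Known targets of ATF4 in amino acid supply were high on the same array. Of 10 synthesis enzymes, 9 were highest on control replicate 1, against 25.8% of all genes, with a median excess of 0.99. Asns, which makes asparagine, had intensities of 3556, 1119 and 1853 in controls and 2042, 1462 and 2244 in silenced cells. Among the serine pathway enzymes the excess was 1.52 for Psph, 0.70 for Phgdh and 0.23 for Psat1. Of 8 transporters, 7 were highest there, with a median of 0.55. Slc7a11, the cystine importer, read 1184, 215 and 233 in controls and 327, 166 and 308 in silenced cells (excess 2.29), while its partner Slc3a2 and the leucine and cationic amino acid carriers Slc7a5 and Slc7a1 stood 0.58, 0.53 and 0.52 above the other arrays.

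The list of 12 genes for aminoacyl-tRNA synthetases and tRNA export was highest on control replicate 1 throughout, against 25.8% of all genes. The excess was smaller (median 0.61, range 0.30 to 1.08). Wars, Nars, Sars and Cars, which charge tRNAs with tryptophan, asparagine, serine and cysteine, had excesses of 0.45, 0.65, 0.76 and 0.70. All 12 had a negative group difference with all arrays (median -0.14), and 11 a positive one without control replicate 1 (median 0.06). Leaving out the highest array of all 12 raises each difference, so nothing is read from this turn. Among 14 other stress outputs the median excess was 0.53. Chac1, a glutathione-degrading enzyme induced through ATF4, had intensities of 1316, 194 and 428 in controls and 558, 218 and 650.0 in silenced cells. Its arrays fell in the same order as those of Nupr1. Ddit4, an inhibitor of mTORC1, was highest on silenced replicate 3 instead (823, 306 and 681 in controls, 486, 309 and 928 in silenced cells), and Vldlr and Stc2 had excesses of 0.03 and -0.22.

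The chaperone branch of the unfolded protein response, driven by ATF6 and XBP1, was mixed on that array, with its best known chaperone low and some other members high. Hspa5, the main ER chaperone (BiP), had intensities of 799, 1694 and 1566 in controls and 2037, 2246 and 1468 in silenced cells. Control replicate 1 was thus its lowest array, at 0.45-fold of the other 5, while the same array was the highest for Ddit3 and Atf3. Hsp90b1, a second ER chaperone, was also lowest there (excess -0.25), whereas Xbp1 (0.20) and Dnajb9 (0.01) were not. The sensor Atf6 (0.85) and Herpud1 (0.77), which acts in ER-associated degradation, were highest there, with a larger excess than that of Atf4. Of the 18 measured genes of this branch, 9 were lowest and 5 highest on control replicate 1, against 19.5% and 25.8% of all genes. The median excess was -0.07. Other bZIP factors had a median excess of 0.14, with Cebpa at 0.04, Cebpd at 0.29, Atf2 at 0.01 and Atf7 at -0.17. Immediate early genes, which respond to handling and growth signals, had a median of 0.04, with Fos at -0.21, Egr1 at 0.14, Ier2 at 0.19 and Dusp1 at 0.10.

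**Figure D5:**
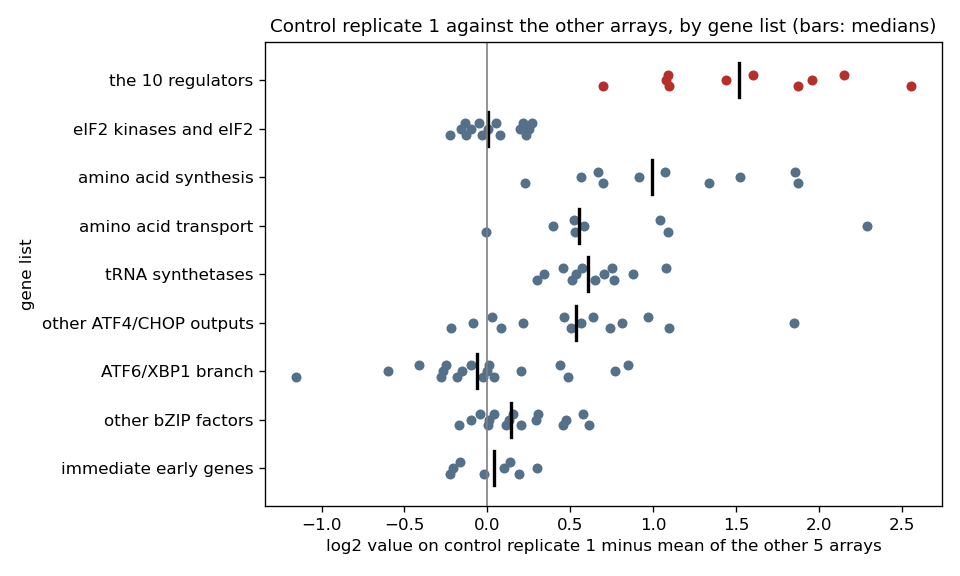
Log2 value on control replicate 1 minus the mean of the other 5 arrays for each gene (points) of the 10 regulators and of 8 lists, with list medians as bars. The regulators have a median of 1.52 and the amino acid synthesis enzymes 0.99, while the list of eIF2 kinases and eIF2 genes has its median at 0.00 and the ATF6/XBP1 branch at -0.07, the latter with single genes from -1.15 to 0.85.

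The genes whose profile over the 6 arrays was closest to the mean profile of the regulators, by root mean square difference in centred log2 values, were Psph (0.075), Iah1 (0.14), D2Bwg1423e (0.16), Rab39b (0.16), Dhrs7 (0.16), Sfxn4 (0.17), Glipr2 (0.18) and Cth (0.18). The median over 22170 other genes was 0.65. Psph and Cth, enzymes of serine and cysteine synthesis, were on the synthesis list, and the other 6 were on none of the lists. Psph had intensities of 1035, 245 and 404 in controls and 434, 284 and 496 in silenced cells. This is the order of arrays of Trib3, Nupr1 and Cebpb, with silenced replicate 3 second and both arrays numbered 2 at the bottom. Of the 22170 genes, 893 were closer to the mean profile than Nupr1 was to that of its fellow regulators.

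Several other values moved with control replicate 1. The 7 immune markers summed to 659 there, the highest of the 6 arrays, against 534 to 587 elsewhere, with single markers between 47.3 and 175. The melanocyte markers summed to 44963 there, also the highest, against 40123 at the lowest array. Of the 15 genes at least 1 log2 unit lower on that array, 6 were small RNAs and the rest, Hspa5 among them, were protein-coding. The share of small RNAs over all genes was not taken, so nothing is read from this count. The small RNAs were low on silenced replicate 1 as well: Snora34 read 363 and 379 on the arrays numbered 1 against 949 to 1246 on the other arrays. Whether any of these takes part in the height of the regulators was not tested. Fewer cells with a transcript and less transcript per cell cannot be told apart in RNA from whole cultures.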

How the data were processed

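RNA of 6 cultures (100 ng each, per the labels' protocols) was measured on 6 arrays. Each deposited value is a linear intensity of 1 transcript cluster, made by the authors with background correction, summarization and normalization that are not given in the sources used here, as is the genome build of the array annotation. Detection calls are not part of the table, so a dim gene may be background signal, and the number of arrays limits the precision. Of 41345 clusters, 40425 were complete and 23521 had exactly 1 gene symbol, which gave 22180 genes after the cluster with the highest mean was kept for each. Values were converted to log2 with no pseudocount and compared by a linear model (lmFit, then eBayes) in limma 3.58.1 under R 4.3.3. Tests were two-sided, p-values were adjusted by Benjamini-Hochberg over the 22180 genes, and the threshold was 0.05. The fit was tested on simulated data.

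The regulators and lists were chosen with earlier results of these data known. Named are all regulators, Angpt2, the first 4 measured genes of each list, and the 8 genes closest in profile. Of the small RNAs, Snora34 was chosen after its values were seen, as were Impact, Atf6, Herpud1, the genes named among the other observations and those called in single settings. The fit has no replicate block, and the block is an alternative, printed where it changed a call. The numbers may mark pairs. Arrays of the same number deviated together from their groups, with correlations across genes of 0.13, 0.21 and 0.14, against -0.19 to 0.06 for unlike numbers. The printed SEs and intervals and the permutation tests do not use a pairing. With the block the SE was smaller for every regulator, at 0.18 against 0.40 for Sesn2 and 0.18 against 0.29 for Atf4. No label ties a number to a day or passage. P-values measure the spread between these cultures. Alternatives covered scaling, the filter on dim genes, the pseudocount, the choice of cluster, eBayes options, array weights, the block and leaving out arrays.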

Additional observations from a re-analysis of the deposited data

How the results depend on the processing

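No regulator passed the threshold in any of the 17 alternatives, where the lowest limma adjusted p of a regulator was 0.854. Of 170 differences, 18 had the opposite sign, 14 of them without control replicate 1 or without both arrays numbered 1. Leaving out arrays gave log2 differences of -0.10 to 0.58 for Atf4, -0.87 to 0.16 for Atf5, -0.68 to 0.20 for Atf3, -1.04 to 0.22 for Ddit3, -1.01 to 0.45 for Trib3, -1.09 to 0.59 for Nupr1, -0.76 to 0.23 for Cebpb, -0.64 to 0.14 for Cebpg and -0.12 to 0.77 for Sesn2. For Ppp1r15a the differences ran from -0.70 to -0.12, and its sign did not turn. For Trib3 and Nupr1 the sign also turned without silenced replicate 2 (0.09 and 0.05). The cause was not tested beyond these omissions. The number of regulators with a negative difference ran from 1 to 10, the number with separate groups from 0 to 3 (in settings where 16.3% to 33.3% of all genes separated), and the regulators' median difference from -0.73 to 0.21. Over all genes, 2 were called with the replicate block (Angpt2 and Pld4), 1 with trend and robust eBayes (Pld4), and 0 to 2 with arrays left out, which were Angpt2 without control replicate 1 or both arrays numbered 1, and Btbd35f12 and Plekho1 without control replicate 2. The block changed the call of Angpt2 and of no regulator. The median difference of the ATF6 and XBP1 branch ran from -0.0087 to 0.071 and that of the other bZIP factors from -0.12 to -0.015 with arrays left out. Medians of the ATF4 target lists moved further and changed sign, from -0.44 to 0.23 for synthesis enzymes, -0.31 to 0.05 for transporters, -0.31 to 0.08 for synthetases and -0.31 to 0.00091 for other outputs. All 10 regulators stayed highest on control replicate 1 in the settings that keep it, with a median excess of 1.34 to 1.65 when other arrays were left out. That count and that excess cannot be had without the array itself. Scaling moved the median of all genes by less than 0.1 log2 units. For the median gene the 95% interval reached 0.23 log2 units to either side, and the regulators' intervals were wider.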

Other observations

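Genes outside the lists of the report shared the peak on control replicate 1, and they are named here after their values were seen. Cyb5r2, a cytochrome b5 reductase, had intensities of 743, 88.8 and 147 on controls 1 to 3 and of 157, 96.5 and 194 on silenced replicates 1 to 3, an excess of 2.51 log2 units that was second only to that of Nupr1 among all genes. Pck2, the mitochondrial phosphoenolpyruvate carboxykinase, read 2324, 466 and 635 in controls and 768, 353 and 796 in silenced cells (excess 2.01). Acot2, a mitochondrial acyl-CoA thioesterase, read 6799, 1347 and 1477 in controls and 1576, 1156 and 1697 in silenced cells (excess 2.24). Hoxb9, a homeobox transcription factor, read 774, 144 and 192 in controls and 261, 143 and 341 in silenced cells (excess 1.92). For Cyb5r2, Pck2, Acot2 and Hoxb9 both arrays numbered 2 were the lowest and silenced replicate 3 the second highest, as for Atf3, Ddit3, Trib3, Nupr1 and Cebpb.

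Hmox1, the haem-degrading enzyme known for its response to oxidative stress, had intensities of 1569, 382 and 789 in controls and 734, 354 and 1004 in silenced cells (excess 1.38). Of the 50 genes at least 1 log2 unit higher on that array, 9 were regulators, 11 were on the other lists and the rest on none. The regulators and lists were chosen with earlier results of these arrays known, so nothing is read from these counts. With all 6 arrays the group difference passed the test for none of the 50 genes, and without control replicate 2 it did for Btbd35f12 (log2 difference -1.68, limma adjusted p = 0.0129).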
